A study of Homo sapiens with 12 samples.

Results

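T47D, an established human breast carcinoma line, was exposed for 6 h to a progestin at 10 nM or to vehicle, and total RNA was sequenced. The comparison rests on 4 of the 12 libraries of the series, 2 at 10 nM and 2 with vehicle, taken by their labelled dose and time, and each group holds a replicate 1 and a replicate 3. All cells, controls included, were first starved of serum in medium free of phenol red with little hormone-stripped serum. The labels name the agent only by its class and give no compound. The other 8 libraries were treated with 100 pM progestin at 6 h, or with vehicle, 100 pM or 10 nM at 18 h, and enter here where the 10 nM response at 6 h is set against the lower dose or the later time.

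Progestins bind the progesterone receptor, a nuclear receptor that is held by chaperones until hormone arrives and then binds DNA as a dimer. Its preferred DNA sequence is shared with the glucocorticoid and mineralocorticoid receptors, so these receptors have many target genes in common. In the breast, progesterone acts on the luminal epithelium, where receptor-positive cells release signals that drive side branching and alveolar growth. T47D is widely used as a model of this response because it makes large amounts of the receptor. It is 1 cell line, so the response of other cells is not covered.

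Total counts were 38158613 and 37995029 in the 10 nM libraries and 38010852 and 37598863 in the vehicle libraries, and 13872 of the 20114 gene symbols had enough counts to test. Mitochondrially encoded genes took 6.73% and 8.93% of the counts at 10 nM and 8.29% and 10.8% in vehicle, the replicate 3 library being the higher in each of the 6 groups of the series. The 11 luminal epithelial markers in the table were detected in all 4 libraries and summed to 8497 and 8454 counts per 1000000 counts of the scaled library (CPM) at 10 nM and 11729 and 11524 CPM in vehicle. Summed markers of other cell types were lower: 73.8 and 84.4 CPM at 10 nM and 109 and 148 CPM in vehicle for 14 basal and myoepithelial genes, 3.74 and 4.06 CPM at 10 nM and 6.28 and 5.69 CPM in vehicle for 12 immune genes, and 2.27 and 2.43 CPM at 10 nM and 1.32 and 1.41 CPM in vehicle for 6 endothelial genes. The 10 fibroblast genes summed to 109.7 and 114 CPM at 10 nM and 107 and 118 CPM in vehicle, nearly all of it from COL1A1, a collagen chain, with 108 and 105 CPM at 10 nM and 105 and 109.7 CPM in vehicle. From bulk RNA, fewer cells of a type and less RNA per cell cannot be told apart.

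The 10 nM dose moved a large part of the transcriptome within 6 h. edgeR's quasi-likelihood test called 3132 genes higher and 2694 lower than vehicle, which is 22.6% and 19.4% of the genes tested (calls are Benjamini-Hochberg adjusted p under 0.05, and all adjusted p-values here come from this test). Of these, 1217 rises and 1042 falls exceeded 2-fold, and 453 rises and 288 falls exceeded 4-fold. Called rises made up 35.2% and 35.3% of the counts of tested genes in the 10 nM libraries, against 21.2% and 20.7% in the vehicle libraries. Called falls made up 9.67% and 9.37% at 10 nM, against 17.5% and 18.2% in vehicle. The 2 libraries of a group were within 1 percentage point of each other on both shares. The genes summed were those called in these same libraries, so the shares give the size of the change and are not a separate test of it. The direction of the calls followed the level of the gene: among the 25% of genes with the lowest average level 424 rose and 669 fell, and among the 25% with the highest 1128 rose and 534 fell. Called changes were also wider among the low genes, with a median absolute log2 fold change of 1.72 in the lowest group and 0.66 in the highest. The median log2 fold change over all genes tested was -0.02, with quartiles of -0.44 and 0.40.

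With replicate number added to the fit as a block the falls became 4282, and they were 1788 without 10 nM replicate 1, 1780 without 10 nM replicate 3 and 1769 without vehicle replicate 3. Rises were 53.8% of the calls with the TMM scaling used here and 39.9% when libraries were scaled by total count alone, where the median log2 fold change over all genes fell by 0.14.

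**Figure D1:**
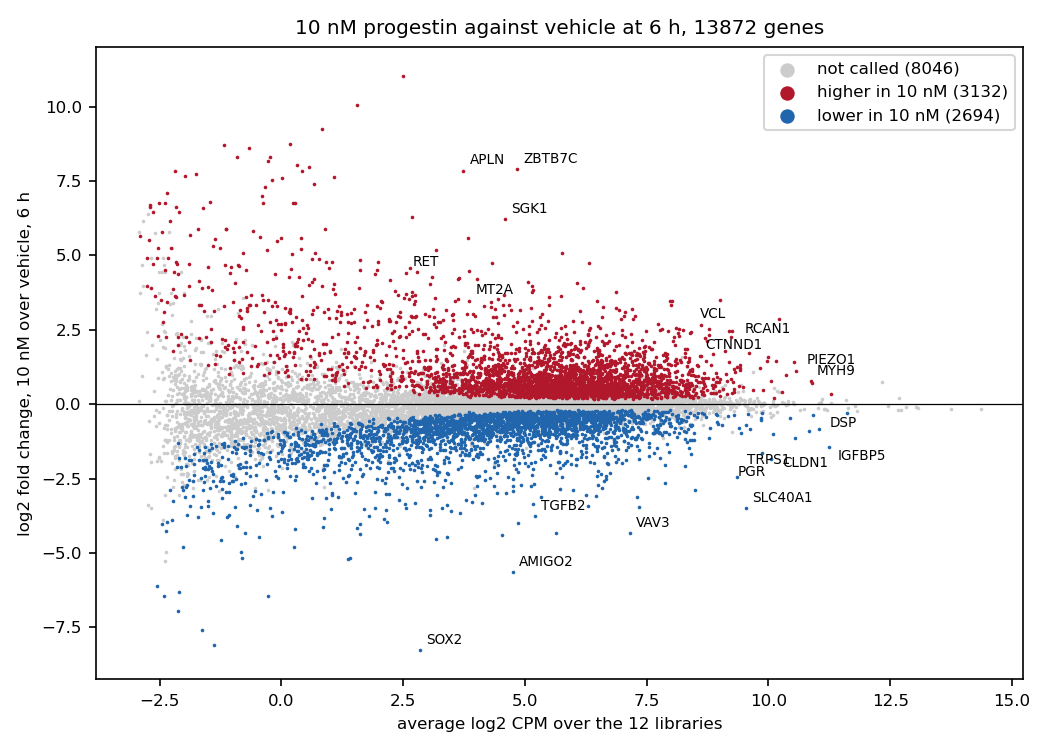
Each point is 1 of the 13872 genes tested, with its average log2 CPM over the 12 libraries on the x axis and the log2 fold change of 10 nM over vehicle at 6 h on the y axis. Red points are the 3132 genes called higher, blue points the 2694 called lower and grey points the rest, and VCL, PGR and SLC40A1 stand out among the abundant genes.

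The steepest rises were in genes that vehicle cells hardly used. In SCRG1, which encodes a secreted protein, neither vehicle library held a count, and the 10 nM level was at least 93.4-fold higher, with 3 counts per library as the floor. SEC14L2, a lipid-transfer protein that binds vitamin E and squalene, measured 58.8 and 78.3 CPM at 10 nM and 2.52 and 2.61 CPM in vehicle. Its log2 fold change was 4.74 ± 0.23 (adjusted p = 3.2e-06). For all log2 fold changes here ± gives an SE derived from the F statistic of the fit of 12 libraries, with 2 libraries a group. TMEM63C, a member of a family of mechanically gated ion channels, measured 87.9 and 145 CPM at 10 nM and 3.76 and 4.87 CPM in vehicle, a log2 fold change of 4.76 ± 0.34 (adjusted p = 1.77e-05). The groups do not overlap in any of the 15 largest rises or the 15 largest falls, since that was a condition of the choice.

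SERPINE2, a secreted inhibitor of thrombin and plasminogen activators, had 11.8 and 14 CPM at 10 nM and 0.636 and 0.435 CPM in vehicle (log2 fold change 4.58 ± 0.42, adjusted p = 5.91e-05). LOX, the enzyme that cross-links collagen and elastin, had 24.3 and 25.2 CPM at 10 nM and 0.890 and 1.38 CPM in vehicle (log2 fold change 4.44 ± 0.40, adjusted p = 5.23e-05). RET, the receptor tyrosine kinase for the GDNF family of ligands, had 16.5 and 17.1 CPM at 10 nM and 0.636 and 0.922 CPM in vehicle (log2 fold change 4.42 ± 0.25, adjusted p = 4.99e-06). LOX and RET were tight between libraries, the 2 libraries at 10 nM differing by less than 1 CPM in each. ACOT6, an acyl-CoA thioesterase, was uneven between libraries, with 5.90 and 13.4 CPM at 10 nM and 0.153 and 0.845 CPM in vehicle (log2 fold change 4.27 ± 0.73, adjusted p = 0.00172). APLN, ZBTB7C, SGK1, TRIM22, CNTFR, GPR124, SLC25A18 and SEPT14 completed the 15, and SEPT14, with 2 counts in vehicle in all, had a count ratio of 88.7 (exact 95% counting interval 24.2 to 738).

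Promoters are shown for 4 of the genes described here, SERPINE2, VCL, ESR1 and ID1, that carry the letters ACANNNTGT, the core of the palindrome bound by the progesterone receptor and its relatives. The sequences come from RefSeq (GRCh38.p14), run from 250 bases before to 50 after the annotated start on the gene's strand, and have the match in capitals. ACOT6, which rose, and SLITRK6, which fell, also held a match and are not shown, while SGK1 and FKBP5 held none in this window. SERPINE2 (chr2:224031429-224031728, minus strand, the match starting at -232) and VCL, which encodes the adhesion protein vinculin (chr10:73997866-73998165, plus strand, match at 9), rose. ESR1, the estrogen receptor gene (chr6:151656422-151656721, plus strand, match at -76), and ID1, an inhibitor of differentiation (chr20:31605039-31605338, plus strand, match at -23), fell.
SERPINE2: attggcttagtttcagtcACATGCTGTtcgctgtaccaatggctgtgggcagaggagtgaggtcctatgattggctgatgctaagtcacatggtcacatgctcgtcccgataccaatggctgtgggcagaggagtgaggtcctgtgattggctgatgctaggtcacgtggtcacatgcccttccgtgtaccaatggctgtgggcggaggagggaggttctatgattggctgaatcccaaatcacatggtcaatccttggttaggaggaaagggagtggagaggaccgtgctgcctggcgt
VCL: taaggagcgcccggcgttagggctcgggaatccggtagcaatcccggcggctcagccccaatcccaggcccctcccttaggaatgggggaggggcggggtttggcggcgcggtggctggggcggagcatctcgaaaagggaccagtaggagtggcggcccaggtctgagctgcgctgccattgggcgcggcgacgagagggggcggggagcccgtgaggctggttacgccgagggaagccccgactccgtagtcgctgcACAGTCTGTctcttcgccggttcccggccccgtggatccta
ESR1: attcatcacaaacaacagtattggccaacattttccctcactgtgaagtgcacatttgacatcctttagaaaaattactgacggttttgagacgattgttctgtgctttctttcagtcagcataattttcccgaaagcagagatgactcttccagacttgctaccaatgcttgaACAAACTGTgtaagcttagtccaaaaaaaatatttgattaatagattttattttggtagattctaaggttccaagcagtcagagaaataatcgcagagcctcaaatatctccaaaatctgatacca
ID1: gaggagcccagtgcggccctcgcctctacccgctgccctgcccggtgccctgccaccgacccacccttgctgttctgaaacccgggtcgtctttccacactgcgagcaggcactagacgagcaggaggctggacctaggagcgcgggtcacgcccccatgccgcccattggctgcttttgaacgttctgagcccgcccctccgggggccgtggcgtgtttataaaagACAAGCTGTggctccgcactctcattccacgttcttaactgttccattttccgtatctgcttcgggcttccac

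A promoter, 1 per gene, was found for 11109 of the 13872 genes tested, and 2.73% of them (303) held ACANNNTGT on either strand. The share was 1.73% of the 2549 promoters of genes called higher (exact 95% interval 1.26% to 2.31%) and 3.10% of the 2158 promoters of genes called lower (2.41% to 3.93%). Among changes over 4-fold it was 2.92% of 343 promoters for rises (1.41% to 5.30%) and 7.24% of 221 for falls (4.19% to 11.5%), the highest of these shares. The hexamer AGAACA, 1 arm of the palindrome, was in 9.10% of all promoters, 9.33% for rises over 4-fold and 13.6% for falls over 4-fold (6.47% to 12.9% and 9.35% to 18.8%). The 2 searches overlap, and a match describes letters in this window and not binding.

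**Figure D2:**
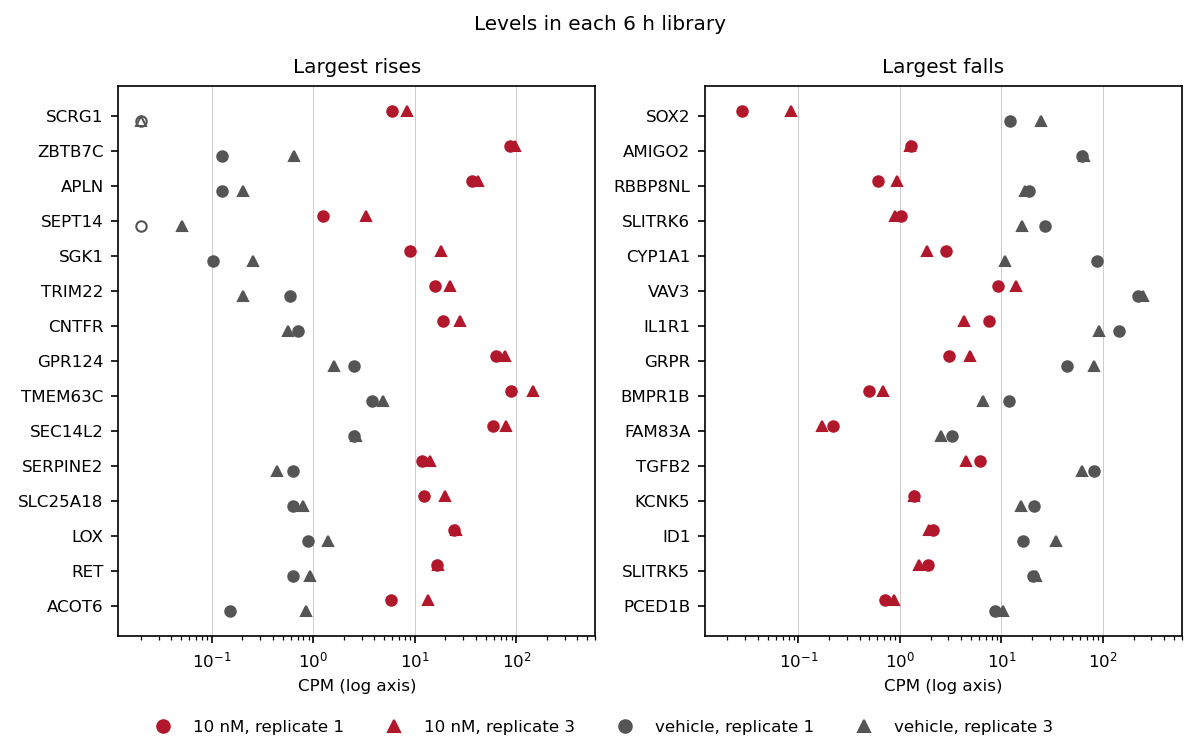
CPM on a log axis in each 6 h library for the 15 largest rises (left) and the 15 largest falls (right), with 10 nM in red above vehicle in grey, circles for replicate 1 and triangles for replicate 3. Open symbols stand for libraries with no count, drawn at 0.02 CPM. The 30 genes were chosen on the condition that the groups do not overlap, and the plot shows how far apart they lie and how close the libraries of a group are.

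SOX2, a transcription factor of stem cells, had 1 and 3 counts in the 10 nM libraries against 477 and 964 in the vehicle libraries. TGFB2, a ligand of the TGF-beta family, had 6.12 and 4.51 CPM at 10 nM and 81.7 and 62.5 CPM in vehicle (log2 fold change -3.76 ± 0.24, adjusted p = 8.43e-06). BMPR1B, a receptor for bone morphogenetic proteins, had 0.498 and 0.677 CPM at 10 nM and 11.8 and 6.51 CPM in vehicle (log2 fold change -3.96 ± 0.53, adjusted p = 0.000482). The targets of that receptor include ID1, which had 2.10 and 1.92 CPM at 10 nM and 16.3 and 34.1 CPM in vehicle (log2 fold change -3.65 ± 0.69, adjusted p = 0.00305). The vehicle libraries were uneven for ID1 and BMPR1B. KCNK5, a potassium channel, had 1.38 and 1.38 CPM at 10 nM and 20.9 and 15.4 CPM in vehicle (log2 fold change -3.71 ± 0.33, adjusted p = 5.03e-05). SLITRK5, a neuronal transmembrane protein, had 1.91 and 1.55 CPM at 10 nM and 20.3 and 21.8 CPM in vehicle (log2 fold change -3.60 ± 0.16, adjusted p = 2.25e-06). FAM83A, a scaffold of growth factor signalling, had 0.221 and 0.169 CPM at 10 nM and 3.26 and 2.56 CPM in vehicle (log2 fold change -3.87 ± 0.54, adjusted p = 0.000589).

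AMIGO2, an adhesion protein, and PCED1B fell together. AMIGO2 had 1.27 and 1.27 CPM at 10 nM and 62.7 and 64.8 CPM in vehicle, and PCED1B 0.720 and 0.874 CPM at 10 nM and 8.60 and 10.2 CPM in vehicle (log2 fold changes -5.64 ± 0.23 and -3.56 ± 0.28, adjusted p = 1.79e-06 and 2.58e-05). In RefSeq (GRCh38.p14) the 2 genes lie on opposite strands of chromosome 12 with their starts next to each other and overlapping, and the strand setting of the counting is not given in the sources used here, so reads of one could be counted for the other. CYP1A1, a detoxifying enzyme, was the least secure of the 15 with 2.82 and 1.86 CPM at 10 nM and 87.3 and 10.8 CPM in vehicle (log2 fold change -4.39 ± 1.20, adjusted p = 0.0176). It lost its call without either 10 nM library or without vehicle replicate 1 (adjusted p 0.0815 to 0.136), and was -2.21 without vehicle replicate 1. RBBP8NL, SLITRK6, VAV3, IL1R1 and GRPR were the others.

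A set of abundant genes moved the most reads. PIEZO1, a mechanically gated channel, had 2688 and 2783 CPM at 10 nM and 1082 and 945 CPM in vehicle (log2 fold change 1.43 ± 0.17, adjusted p = 0.000201). Of the 6 rises that moved the most reads, 3 belong to adhesion or contraction. VCL had 1536 and 1589 CPM at 10 nM and 308 and 257 CPM in vehicle (log2 fold change 2.47 ± 0.18, adjusted p = 2.03e-05). CTNND1, the p120 catenin that stabilises cadherins, had 2090.1 and 1897 CPM at 10 nM and 723 and 744 CPM in vehicle (log2 fold change 1.44 ± 0.12, adjusted p = 3.35e-05). MYH9, the heavy chain of nonmuscle myosin, rose by a smaller factor, with 2761 and 2938 CPM at 10 nM and 1853 and 1504 CPM in vehicle (log2 fold change 0.76 ± 0.14, adjusted p = 0.00212). RCAN1, an inhibitor of calcineurin, had 1781 and 1280.3 CPM at 10 nM and 301 and 258 CPM in vehicle (log2 fold change 2.45 ± 0.31, adjusted p = 0.00035).

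Among the abundant falls, SLC40A1, the iron exporter ferroportin, dropped furthest, with 83.2 and 113 CPM at 10 nM and 881 and 1338 CPM in vehicle (log2 fold change -3.50 ± 0.40, adjusted p = 0.00019). PGR, which encodes the progesterone receptor itself, had 589 and 493 CPM at 10 nM and 2111 and 1786 CPM in vehicle (log2 fold change -1.85 ± 0.30, adjusted p = 0.00124). CLDN1, a claudin of the tight junction, had 1018 and 709 CPM at 10 nM and 2087 and 1726 CPM in vehicle (log2 fold change -1.14 ± 0.25, adjusted p = 0.00582). DSP, the desmosomal protein desmoplakin, had 1430.1 and 1156 CPM at 10 nM and 2500.2 and 2141 CPM in vehicle (log2 fold change -0.84 ± 0.18, adjusted p = 0.0058). TRPS1, a GATA-type repressor of luminal cells, had 1172 and 1092 CPM at 10 nM and 2109 and 2091 CPM in vehicle (log2 fold change -0.89 ± 0.14, adjusted p = 0.000959). IGFBP5, which binds insulin-like growth factors, took the most reads but was uneven, with 1114 and 1640.2 CPM at 10 nM and 2562 and 4989.7 CPM in vehicle (log2 fold change -1.46 ± 0.49, adjusted p = 0.0423), and it lost its call without 10 nM replicate 1, 10 nM replicate 3 or vehicle replicate 3, where it was -0.90 (adjusted p 0.0878 to 0.257). With no filter on low counts its adjusted p was 0.0556.

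The genes below are grouped by role, in lists whose members and size are given as the number tested. Each count is read against the 22.6% of all genes that rose and the 19.4% that fell. Counts with the block are read against the 4380 rises and 4282 falls of all 13872 genes in that fit. Steroid receptors fell as a group. Over 6 tested genes there were 0 rises, 5 falls and 1 without a call, and the median log2 fold change was -1.34. ESR1 had 49.2 and 71.1 CPM at 10 nM and 204 and 242 CPM in vehicle (log2 fold change -1.89 ± 0.20, adjusted p = 0.000124). The mineralocorticoid receptor gene NR3C2 had 4.26 and 4.23 CPM at 10 nM and 12.6 and 12 CPM in vehicle (log2 fold change -1.54 ± 0.13, adjusted p = 4.5e-05). The glucocorticoid receptor gene NR3C1 moved least of those called, with 16.4 and 11.9 CPM at 10 nM and 22.2 and 21.2 CPM in vehicle (log2 fold change -0.62 ± 0.20, adjusted p = 0.0356), and lost its call without vehicle replicate 1, vehicle replicate 3 or 10 nM replicate 3, where it was -0.40 (adjusted p 0.0948 to 0.213).

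Other nuclear receptors fell more often than they rose, with a share of rises below that of all genes tested. The 29 genes tested comprised 4 rises, 11 falls and 14 without a call, and the median log2 fold change was -0.38. VDR, the vitamin D receptor, had 702 and 689 CPM at 10 nM and 110.3 and 124 CPM in vehicle (log2 fold change 2.57 ± 0.10, adjusted p = 1.19e-06). ESRRA, an orphan receptor that drives mitochondrial genes, had 149 and 162 CPM at 10 nM and 54.3 and 56.6 CPM in vehicle (log2 fold change 1.49 ± 0.09, adjusted p = 7.22e-06). The retinoic acid receptors moved the other way: RARG had 29 and 27.4 CPM at 10 nM and 88.4 and 93.3 CPM in vehicle (log2 fold change -1.69 ± 0.10, adjusted p = 7.05e-06) and RARA 43.6 and 29.1 CPM at 10 nM and 94.7 and 91.3 CPM in vehicle (log2 fold change -1.36 ± 0.17, adjusted p = 0.000316). CYP26A1, which degrades retinoic acid, had 4.23 and 6.38 CPM at 10 nM and 0.102 and 0.282 CPM in vehicle (log2 fold change 4.77 ± 0.64, adjusted p = 0.000448).

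Of the 25 receptor coregulators, 3 rose and 8 fell, among them NCOA3 and NCOA2, coactivators of the p160 family, at -0.71 ± 0.11 and -0.85 ± 0.11. CITED2, a CBP-binding regulator, fell too, with 185 and 210.0 CPM at 10 nM and 462 and 439.7 CPM in vehicle (log2 fold change -1.19 ± 0.09, adjusted p = 1.76e-05). The chaperones and co-chaperones that hold steroid receptors were called in 1 direction: 11 of 18 rose and 0 fell (median log2 0.44), the other 7 not being called. When libraries were scaled by total count, 10 rose and 1 fell. FKBP4, a co-chaperone of HSP90, had 556 and 621 CPM at 10 nM and 315 and 291 CPM in vehicle (log2 fold change 0.96 ± 0.12, adjusted p = 0.000269). FKBP5, its glucocorticoid- and progestin-induced relative, had 419.8 and 612 CPM at 10 nM and 30.6 and 59.4 CPM in vehicle (log2 fold change 3.52 ± 0.40, adjusted p = 0.000196). Classic progestin and glucocorticoid induced genes were next. The list's 36 tested genes gave 20 rises, 4 falls and 12 without a call, and the median log2 fold change was 1.0. ELL2, an elongation factor of RNA polymerase II, had 115 and 118 CPM at 10 nM and 13 and 15.2 CPM in vehicle (log2 fold change 3.04 ± 0.17, adjusted p = 5.1e-06). HSD11B2, which inactivates cortisol, had 26.2 and 37.7 CPM at 10 nM and 2.72 and 2.33 CPM in vehicle (log2 fold change 3.66 ± 0.24, adjusted p = 1e-05).

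Estrogen receptor target genes split evenly: 12 of 39 rose and 11 fell (median log2 0.11), a median that turned to -0.03 when libraries were scaled by total count. Log2 fold changes in the list ran from -2.581 to 4.425, and the genes described next are all rises. Among the rises was RAPGEFL1, with 301 and 284 CPM at 10 nM and 25.6 and 27.6 CPM in vehicle (log2 fold change 3.46 ± 0.17, adjusted p = 3.36e-06). CA12, a carbonic anhydrase of the cell surface, had 532 and 526 CPM at 10 nM and 91.8 and 97.9 CPM in vehicle (log2 fold change 2.48 ± 0.09, adjusted p = 1.13e-06). GREB1, a chromatin-bound partner of the estrogen receptor, had 881 and 1009 CPM at 10 nM and 183 and 213 CPM in vehicle (log2 fold change 2.25 ± 0.12, adjusted p = 4.78e-06).

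**Figure D3:**
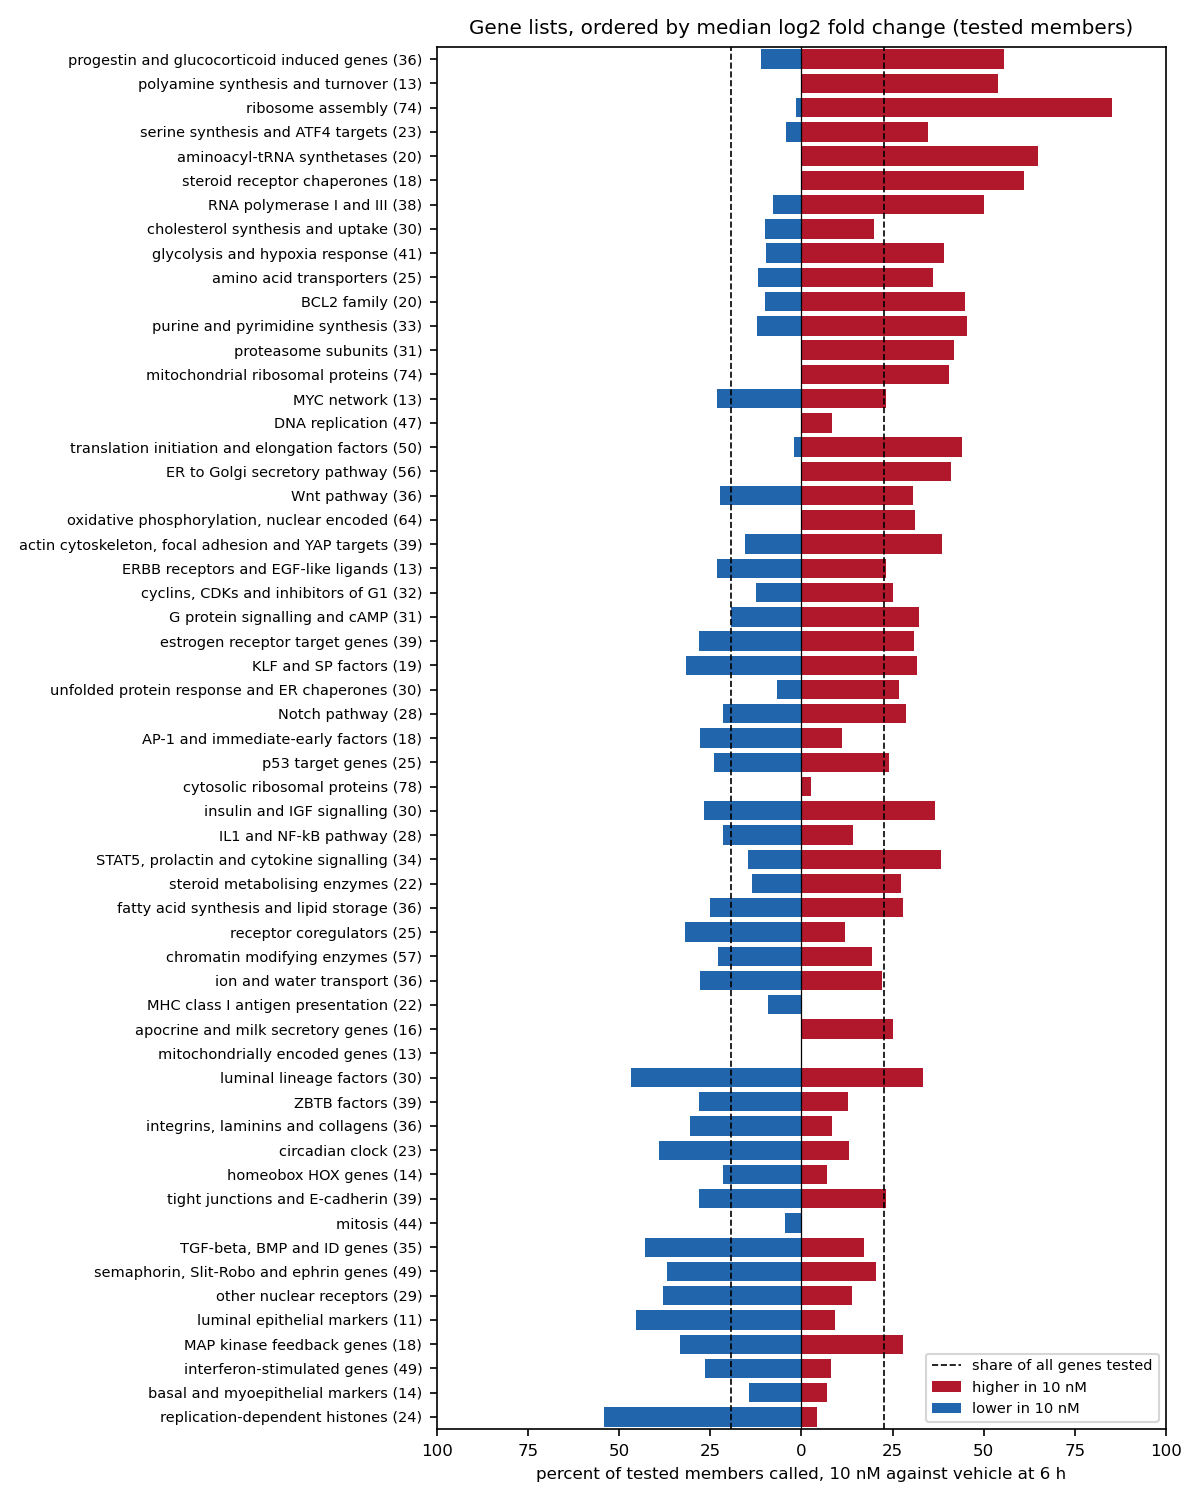
Percent of the tested members of 57 gene lists called higher (red, to the right) or lower (blue, to the left) at 10 nM than in vehicle at 6 h, ordered by median log2 fold change, with the number tested in brackets. Dashed lines mark the 22.6% and 19.4% of all genes tested that were called each way, and ribosome assembly and the replication-dependent histones reach furthest beyond them on either side.

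Transcription factors of the luminal lineage were among the most responsive lists, in both directions. Over 30 tested genes there were 10 rises, 14 falls and 6 without a call, and the median log2 fold change was -0.16. GRHL2, a grainyhead factor of epithelial cells, had 449.6 and 453 CPM at 10 nM and 194 and 201 CPM in vehicle (log2 fold change 1.19 ± 0.08, adjusted p = 1.1e-05). TFAP2C, an AP-2 factor, had 25.4 and 24.7 CPM at 10 nM and 86.2 and 86.1 CPM in vehicle (log2 fold change -1.78 ± 0.12, adjusted p = 1.18e-05), GATA3 412 and 441 CPM at 10 nM and 1292 and 1373 CPM in vehicle (log2 fold change -1.64 ± 0.10). FOXA1, a pioneer factor, had 53 and 69.9 CPM at 10 nM and 377 and 398 CPM in vehicle (log2 fold change -2.66 ± 0.20). EHF, an ETS factor of epithelia, fell as well, with 41.1 and 49.4 CPM at 10 nM and 276 and 391 CPM in vehicle (log2 fold change -2.88 ± 0.23, adjusted p = 3.13e-05). Of the 8 SOX factors 2 rose and 3 fell, SOX9, a factor of luminal progenitors, being higher with 201 and 215 CPM at 10 nM and 95.2 and 102 CPM in vehicle (log2 fold change 1.08 ± 0.15, adjusted p = 0.000655).

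Immediate-early factors fell more often than they rose at 6 h. The 18 genes tested comprised 2 rises, 5 falls and 11 without a call. The share of rises was below that of all genes tested and the share of falls above it. The median log2 fold change was 0.07, which turned to -0.07 when libraries were scaled by total count. It was -0.035 without 10 nM replicate 1 and -0.017 without vehicle replicate 3. JUNB, an AP-1 subunit, had 14 and 13.3 CPM at 10 nM and 49 and 45.5 CPM in vehicle (log2 fold change -1.79 ± 0.21, adjusted p = 0.000245). IER2 had 18.2 and 16.4 CPM at 10 nM and 72.3 and 69.4 CPM in vehicle (log2 fold change -2.03 ± 0.11, adjusted p = 4.84e-06). IER5 went the other way, with 134 and 132 CPM at 10 nM and 35.6 and 32.6 CPM in vehicle (log2 fold change 1.97 ± 0.17, adjusted p = 4.53e-05). Of the 39 ZBTB zinc finger factors 5 rose and 11 fell, and of 19 KLF and SP factors 6 rose and 6 fell, with SP1 and SP3, which bind GC boxes, at -0.54 ± 0.07 and -0.81 ± 0.07. KLF15, a glucocorticoid-induced factor, rose to 4.95 and 6.38 CPM at 10 nM against 1.22 and 0.845 CPM in vehicle (log2 fold change 2.45 ± 0.23, adjusted p = 7.09e-05). Of 14 HOX genes 1 rose and 3 fell. MYC, a driver of ribosome and nucleotide production, had 121 and 94.1 CPM at 10 nM and 32.8 and 31.8 CPM in vehicle (log2 fold change 1.73 ± 0.33, adjusted p = 0.00332). Of the 13 genes of its network 3 rose and 3 fell, shares near those of all genes tested.

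Ribosome assembly, part of the machinery of growth, rose broadly. The list's 74 tested genes gave 63 rises, 1 fall and 10 without a call, and the median log2 fold change was 0.71. MPHOSPH10, a component of the small subunit processome, had 253 and 293 CPM at 10 nM and 32.9 and 31.2 CPM in vehicle (log2 fold change 3.09 ± 0.15, adjusted p = 2.97e-06). TSR1, a maturation factor of the small subunit, had 162 and 168 CPM at 10 nM and 65.4 and 73.1 CPM in vehicle (log2 fold change 1.25 ± 0.08, adjusted p = 1.05e-05). Within the ribosome list MPHOSPH10 stood apart: its fold exceeded that of any other member. RNA polymerases I and III, which make ribosomal and transfer RNA, followed. Over 38 tested genes there were 19 rises, 3 falls and 16 without a call, and the median log2 fold change was 0.38. POLR1E, a subunit of polymerase I, had 34.3 and 30.4 CPM at 10 nM and 16.2 and 15.5 CPM in vehicle (log2 fold change 1.03 ± 0.10, adjusted p = 8.56e-05).

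For aminoacyl-tRNA synthetases 13 of 20 rose and 0 fell (median log2 0.53), FARSB, a phenylalanyl-tRNA synthetase subunit, being at 0.80 ± 0.07. For initiation and elongation factors 22 of 50 rose and 1 fell (median log2 0.23), with EIF5B, a subunit-joining factor, at 190.1 and 159.9 CPM at 10 nM against 82.9 and 85.1 CPM in vehicle (log2 fold change 1.06 ± 0.11, adjusted p = 0.000123). For mitochondrial ribosomal proteins 30 of 74 rose and 0 fell (median log2 0.26), with MRPS5 at 1.26 ± 0.10. Scaled by total count, these became 18 rises and 2 falls (median log2 0.115). The initiation and elongation factors then had 15 rises and 3 falls (median log2 0.091). For cytosolic ribosomal proteins 2 of 78 rose and 0 fell (median log2 0.03). The median became -0.11 when libraries were scaled by total count and -0.039 without vehicle replicate 3. Many cytosolic ribosomal protein genes have near-identical processed copies, so their counts are less certain.

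Suppliers of building blocks moved with them. The 33 genes tested comprised 15 rises, 4 falls and 14 without a call, and the median log2 fold change was 0.28, for the list of purine and pyrimidine synthesis. IMPDH1, which commits purines to guanine nucleotides, had 341 and 392 CPM at 10 nM and 47.8 and 52.8 CPM in vehicle (log2 fold change 2.86 ± 0.10, adjusted p = 1.13e-06). CTPS1, a CTP synthase, had 42.9 and 40.4 CPM at 10 nM and 12.2 and 10.9 CPM in vehicle (log2 fold change 1.84 ± 0.16, adjusted p = 4.21e-05). In polyamine metabolism 7 of 13 rose and 0 fell (median log2 0.72), covering ODC1, the first enzyme, at 0.72 ± 0.09, AMD1, which supplies the aminopropyl donor, at 2.02 ± 0.25, and SRM, spermidine synthase, at 2.07 ± 0.12. SRM had 90.9 and 102 CPM at 10 nM and 22.4 and 23.6 CPM in vehicle (adjusted p = 5e-06). Of 25 amino acid transporters 9 rose and 3 fell, SLC1A4, a carrier of neutral amino acids, with 103 and 110.1 CPM at 10 nM and 22.9 and 25.3 CPM in vehicle (log2 fold change 2.14 ± 0.11, adjusted p = 3.36e-06), and SLC7A8, a carrier of large neutral amino acids, with 159 and 149.6 CPM at 10 nM and 28.9 and 32.2 CPM in vehicle (log2 fold change 2.33 ± 0.28, adjusted p = 0.000253). Of 23 ATF4 targets and serine synthesis genes 8 rose and 1 fell, with PCK2, the mitochondrial PEP carboxykinase, at 1.45 ± 0.18, while ATF5, a relative of ATF4, fell by 0.96 on the log2 scale. Proteasome subunits shared the direction, and 13 of 31 rose and 0 fell (median log2 0.27).

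The secretory route and energy metabolism were more selective. For the unfolded protein response 8 of 30 rose and 2 fell (median log2 0.11), with a median of -0.04 under scaling by total count, and MANF, a secreted ER stress protein, had 98.3 and 104 CPM at 10 nM and 20.9 and 24.7 CPM in vehicle (log2 fold change 2.15 ± 0.14, adjusted p = 9.89e-06). CREB3L2, a membrane-bound factor that induces secretory genes, had 356 and 362 CPM at 10 nM and 88.4 and 109.9 CPM in vehicle (log2 fold change 1.86 ± 0.14, adjusted p = 2.16e-05). Between ER and Golgi 23 of 56 rose and 0 fell (median log2 0.21), including SEC24D, a COPII coat subunit, at 1.17 ± 0.13. Under scaling by total count 16 of the ER to Golgi genes rose and 3 fell (median log2 0.064). In glycolysis and the hypoxia response 16 of 41 rose and 4 fell (median log2 0.34). PFKFB3, which makes the activator of phosphofructokinase, had 748 and 738 CPM at 10 nM and 71.9 and 62.5 CPM in vehicle (log2 fold change 3.47 ± 0.27, adjusted p = 2.72e-05). SLC16A1, a lactate transporter, had 7.89 and 8.46 CPM at 10 nM and 1.09 and 0.692 CPM in vehicle (log2 fold change 3.19 ± 0.30, adjusted p = 6.25e-05). For oxidative phosphorylation 20 of 64 rose and 0 fell (median log2 0.15), with NDUFS1, a complex I subunit, at 0.95 ± 0.08. That rise depended on the scaling: by total count 10 rose and 3 fell (median log2 0.005). All genes tested gave 2443 rises and 3678 falls with that scaling, so the share of rises in the list was then no higher than over all genes. Of the 13 mitochondrially encoded genes 0 were called in either direction (median log2 -0.15). Their median was 0.057 without 10 nM replicate 1 and 0.073 without vehicle replicate 3.

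Lipid genes went both ways at 6 h. In fatty acid synthesis and lipid storage 10 of 36 rose and 9 fell (median log2 -0.08), shares not far above those of all genes tested. The median was 0.01 without vehicle replicate 1 and 0.044 without vehicle replicate 3. ACACA, acetyl-CoA carboxylase, had 283 and 332 CPM at 10 nM and 146 and 160.4 CPM in vehicle (log2 fold change 1.01 ± 0.10, adjusted p = 8.9e-05). In cholesterol synthesis and uptake 6 of 30 rose and 3 fell (median log2 0.34), a share of rises near that of all genes tested and a share of falls below it. The regulators moved in opposite directions: SCAP, which escorts SREBP to the Golgi, had 154 and 165 CPM at 10 nM and 66.7 and 67.4 CPM in vehicle (log2 fold change 1.25 ± 0.07, adjusted p = 5.13e-06). INSIG2, which retains it in the ER, had 14.3 and 12.1 CPM at 10 nM and 42.4 and 39.6 CPM in vehicle (log2 fold change -1.63 ± 0.13, adjusted p = 2.94e-05).

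Of 13 ERBB receptors, ligands and regulators 3 rose and 3 fell, shares near those of all genes tested. ERBB2, the receptor HER2, had 226 and 199 CPM at 10 nM and 473 and 496 CPM in vehicle (log2 fold change -1.19 ± 0.08, adjusted p = 1.3e-05), and ERBB3, its partner, was at -0.47 ± 0.09. TGFA, transforming growth factor alpha, had 47.7 and 54.5 CPM at 10 nM and 18.7 and 17.2 CPM in vehicle (log2 fold change 1.51 ± 0.11, adjusted p = 1.81e-05), and EGF itself 11.8 and 11.4 CPM at 10 nM and 1.58 and 1.23 CPM in vehicle (log2 fold change 3.04 ± 0.23, adjusted p = 2.1e-05). GRB7, an adaptor of ERBB2, had 5.45 and 7.05 CPM at 10 nM and 26.9 and 34.3 CPM in vehicle (log2 fold change -2.29 ± 0.18, adjusted p = 2.7e-05). Of the 18 MAP kinase feedback genes 5 rose and 6 fell, DUSP14 being higher at 2.03 ± 0.25 and DUSP5, a phosphatase of nuclear ERK, lower at -1.27 ± 0.19. Insulin and IGF signalling gave 11 rises and 8 falls of 30 (median log2 0.00, and -0.14 under scaling by total count), with the PI3 kinase regulatory subunits PIK3R2 and PIK3R3 at 1.27 ± 0.07 and -1.58 ± 0.12.

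Cytokine signalling gave 13 rises and 5 falls of 34. IL20RA, a receptor chain for IL-20 family cytokines, had 234 and 285 CPM at 10 nM and 17.3 and 20.9 CPM in vehicle (log2 fold change 3.76 ± 0.15, adjusted p = 1.66e-06). JAK3, a cytokine receptor kinase, had 12.1 and 12.5 CPM at 10 nM and 35.1 and 45.6 CPM in vehicle (log2 fold change -1.71 ± 0.14, adjusted p = 3.37e-05). TGF-beta, BMP and ID genes were lower more often than higher. The list's 35 tested genes gave 6 rises, 15 falls and 14 without a call, and the median log2 fold change was -0.35. SMAD3, an effector of TGF-beta, had 13.7 and 13.4 CPM at 10 nM and 39 and 38.4 CPM in vehicle (log2 fold change -1.51 ± 0.15, adjusted p = 7.84e-05), ID3 was at -2.37 ± 0.27, and the receptor TGFBR1 rose, with 241 and 216 CPM at 10 nM and 105 and 90.0 CPM in vehicle (log2 fold change 1.23 ± 0.12, adjusted p = 8.9e-05).

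In the Notch pathway 8 of 28 genes rose and 6 fell, shares not far above those of all genes tested. DLL4, a Notch ligand, had 6.09 and 6.23 CPM at 10 nM and 0.305 and 0.205 CPM in vehicle (log2 fold change 4.58 ± 0.34, adjusted p = 1.79e-05). JAG1, another, had 64.9 and 55.1 CPM at 10 nM and 7.28 and 5.46 CPM in vehicle (log2 fold change 3.24 ± 0.20, adjusted p = 7.56e-06). NOTCH3, a receptor, had 147 and 153 CPM at 10 nM and 409 and 431 CPM in vehicle (log2 fold change -1.49 ± 0.09, adjusted p = 5.13e-06). MAML2, a coactivator of Notch, had 12.4 and 12.4 CPM at 10 nM and 51 and 46.7 CPM in vehicle (log2 fold change -1.98 ± 0.08, adjusted p = 1.84e-06). Of 36 Wnt genes 11 rose and 8 fell. The receptor FZD1 was at 1.70 ± 0.11, FZD4 at -1.27 ± 0.10, and RNF43, which removes Frizzled receptors from the membrane, had 2.16 and 4.12 CPM at 10 nM and 24.1 and 25.5 CPM in vehicle (log2 fold change -2.98 ± 0.30, adjusted p = 0.000105). G protein and cAMP genes gave 10 rises and 6 falls of 31, among them PDE5A, a cGMP phosphodiesterase, with 19.7 and 25.8 CPM at 10 nM and 3.0 and 3.02 CPM in vehicle (log2 fold change 2.92 ± 0.21, adjusted p = 1.79e-05). Of 28 IL1 and NF-kB genes 4 rose and 6 fell.

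Cell cycle genes gave more calls with the block, as did all genes tested. Over the 13872 genes the block gave 4380 rises and 4282 falls, against 3132 and 2694 without it. CCND1, cyclin D1, had 452 and 452 CPM at 10 nM and 101 and 87.4 CPM in vehicle (log2 fold change 2.26 ± 0.17, adjusted p = 2.24e-05). CDKN1A, the CDK inhibitor p21, had 48.3 and 40.2 CPM at 10 nM and 22.2 and 19.5 CPM in vehicle (log2 fold change 1.08 ± 0.15, adjusted p = 0.000518). Of the 32 G1 regulators 8 rose and 4 fell (median log2 0.12, and -0.02 under scaling by total count), a share of rises near that of all genes tested. With the block the G1 regulators had 13 rises and 7 falls. Of 47 DNA replication genes 4 rose, led by GINS2, a subunit of the replicative helicase, with 132 and 209 CPM at 10 nM and 18.4 and 26.4 CPM in vehicle (log2 fold change 2.93 ± 0.36, adjusted p = 0.000295), and 0 fell. With the block 16 of the replication genes rose and 2 fell. Of 44 mitotic genes 0 rose and 2 fell, or 3 and 11 with the block. The 2 were ASPM, a spindle pole protein, with 28 and 28.2 CPM at 10 nM and 119.9 and 97.9 CPM in vehicle (log2 fold change -1.95 ± 0.18, adjusted p = 7.42e-05), and CENPE, a kinetochore motor, at -1.17 ± 0.27. MKI67, a marker of cycling cells, was not called, with 50.6 and 65.4 CPM at 10 nM and 63.3 and 72.1 CPM in vehicle (log2 fold change -0.22 ± 0.38, adjusted p = 0.671). Replication-dependent histones gave 1 rise and 13 falls of 24 (median log2 -0.75), HIST1H2AC having 19.2 and 26.3 CPM at 10 nM and 50.4 and 57.6 CPM in vehicle (log2 fold change -1.25 ± 0.23, adjusted p = 0.00255). The falls in this list were 5 without 10 nM replicate 1 and 6 without vehicle replicate 3, and the genes are near-identical in sequence.

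Survival and immune genes were mixed. Of the BCL2 family 9 of 20 rose and 2 fell: BCL2L1, which encodes the survival protein BCL-XL, had 702 and 715 CPM at 10 nM and 272 and 294 CPM in vehicle (log2 fold change 1.33 ± 0.11, adjusted p = 3.53e-05). BCL2, which also blocks apoptosis, had 2.91 and 2.03 CPM at 10 nM and 18.2 and 11.4 CPM in vehicle (log2 fold change -2.58 ± 0.35, adjusted p = 0.000497). TNFRSF10B, a death receptor for TRAIL, had 157 and 144 CPM at 10 nM and 56.8 and 42.4 CPM in vehicle (log2 fold change 1.60 ± 0.24, adjusted p = 0.000869). Of 25 p53 targets 6 rose and 6 fell, shares near those of all genes tested. Of 49 interferon-stimulated genes 4 rose and 13 fell, USP18, which curbs interferon receptor signalling, being at -1.44 ± 0.22. The falls in this list dropped to 4 without 10 nM replicate 1, 10 nM replicate 3 or vehicle replicate 1, a share below that of all genes tested, and were 22 with the block. Of 22 genes of MHC class I presentation 0 rose and 2 fell.

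In the actin, focal adhesion and YAP list 15 of 39 rose and 6 fell (median log2 0.13, and -0.01 under scaling by total count). PXN, the focal adhesion scaffold paxillin, had 1179 and 1094 CPM at 10 nM and 503 and 566 CPM in vehicle (log2 fold change 1.09 ± 0.12, adjusted p = 0.00014). RHOB, a small GTPase, had 1055 and 1149 CPM at 10 nM and 418 and 543 CPM in vehicle (log2 fold change 1.20 ± 0.14, adjusted p = 0.000233). Integrins, laminins and collagens gave 3 rises and 11 falls of 36. DST, which links intermediate filaments to hemidesmosomes, had 38 and 24.3 CPM at 10 nM and 182 and 149 CPM in vehicle (log2 fold change -2.41 ± 0.26, adjusted p = 0.000156). LAMA3, a laminin chain, had 37.6 and 40.8 CPM at 10 nM and 16.2 and 19.2 CPM in vehicle (log2 fold change 1.15 ± 0.14, adjusted p = 0.000234). Tight junction and E-cadherin genes gave 9 rises and 11 falls of 39, with ESRP1, an epithelial splicing factor, at -0.94 ± 0.07. Guidance genes (semaphorins, Slits, Robos and ephrins) were lower more often, 10 rising and 18 falling of 49. EPHA4, an ephrin receptor, had 12.5 and 16.2 CPM at 10 nM and 127 and 109.6 CPM in vehicle (log2 fold change -3.05 ± 0.18, adjusted p = 6.95e-06). SEMA3C, a secreted semaphorin, had 37.4 and 32.2 CPM at 10 nM and 149 and 129.6 CPM in vehicle (log2 fold change -2.0 ± 0.11, adjusted p = 4.73e-06).

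Keratins changed in an uneven way. KRT18, a luminal keratin, had 627 and 638 CPM at 10 nM and 1328 and 1205 CPM in vehicle (log2 fold change -1.0 ± 0.11, adjusted p = 0.000178). Its partner KRT8 had 1621 and 1784 CPM at 10 nM and 2251 and 2144 CPM in vehicle (log2 fold change -0.37 ± 0.12, adjusted p = 0.0357) and lost its call whenever any 1 of the 4 libraries was left out. KRT5, a keratin of basal cells, had 55 and 71 counts at 10 nM against 0 and 1 in vehicle, a count ratio of 138 (exact 95% counting interval 24.3 to 5490). In CPM it stood at 1.52 and 2.0 CPM at 10 nM against 0 and 0.0256 CPM in vehicle. Of the 14 basal and myoepithelial markers tested KRT5 was the 1 that rose, and 2 fell, among them TP63, the basal master regulator, with 0.471 and 0.282 CPM at 10 nM and 1.91 and 1.38 CPM in vehicle (log2 fold change -2.12 ± 0.40, adjusted p = 0.00306).

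All 3 metallothioneins tested, which bind zinc and copper, rose: MT2A had 31.1 and 51.3 CPM at 10 nM and 3.48 and 3.87 CPM in vehicle (log2 fold change 3.48 ± 0.43, adjusted p = 0.000316), and MT1X and MT1F were at 3.87 ± 0.39 and 3.05 ± 0.36, although the family is near-identical in sequence. Of 36 ion and water transport genes 8 rose and 10 fell, ATP1B3, an ion pump subunit, rising at 0.90 ± 0.10. Clock genes were lower more often, with 3 of 23 rising and 9 falling. DBP and TEF, output factors of the clock, were at -1.70 ± 0.19 and -1.55 ± 0.10, BHLHE40, a repressor in the loop, had 55.1 and 46.5 CPM at 10 nM and 115 and 104 CPM in vehicle (log2 fold change -1.10 ± 0.11, adjusted p = 8.72e-05), and PER2 rose, at 1.02 ± 0.12. Of 57 chromatin enzymes 11 rose and 13 fell, shares near those of all genes tested. KDM4B, a histone demethylase, had 469.8 and 527 CPM at 10 nM and 128 and 148 CPM in vehicle (log2 fold change 1.85 ± 0.16, adjusted p = 5.02e-05). Of 16 apocrine and milk genes 4 rose and 0 fell, S100P, a calcium-binding protein, with 8.86 and 6.46 CPM at 10 nM and 0.458 and 0.359 CPM in vehicle (log2 fold change 4.22 ± 0.79, adjusted p = 0.00275).

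Further list counts depended on the fit, and those that reached 5 genes in either fit are given here. The list sizes are those given above. Over all 13872 genes the block raised the calls as well, to 4380 rises and 4282 falls, and leaving out any 1 of the 4 libraries lowered them. The moves of the lists were not separated from these moves of the whole. With the block, the rises that moved by over 1.5 times were 6 for AP-1 and immediate-early factors, 7 for circadian clock, 5 for cytosolic ribosomal proteins and 9 for IL1 and NF-kB pathway. Others were 6 for integrins and laminins, 13 for ion and water transport, 5 for MYC network and 12 for p53 target genes. Then came 24 for proteasome subunits, 5 for receptor coregulators, 18 for serine synthesis and ATF4 targets and 8 for ZBTB factors. The falls that moved as far with the block were 7 for basal and myoepithelial markers, 23 for chromatin modifying enzymes, 7 for glycolysis and hypoxia response and 7 for homeobox HOX genes. Others were 8 for MHC class I antigen presentation, 5 for MYC network, 17 for other nuclear receptors and 7 for progestin and glucocorticoid induced genes. Then came 9 for cytokine signalling, 20 for tight junctions and E-cadherin, 5 for translation initiation and elongation factors and 18 for ZBTB factors. Leaving out each of the 4 libraries in turn, the rises that moved as far were 7 to 12 for aminoacyl-tRNA synthetases, 5 to 8 for BCL2 family, 5 to 7 for ion and water transport and 3 to 5 for KLF and SP factors. Others were 5 to 7 for luminal lineage factors, 3 to 4 for MAP kinase feedback genes, 10 to 19 for oxidative phosphorylation and 4 to 7 for polyamine synthesis and turnover. Then came 6 to 11 for proteasome subunits, 5 to 7 for semaphorin, Slit-Robo and ephrin genes, 5 to 9 for serine synthesis and ATF4 targets and 8 to 11 for cytokine signalling. They were 12 to 17 for translation initiation and elongation factors and 3 to 4 for ZBTB factors. The falls that moved as far when 1 library was left out were 3 to 5 for actin and YAP genes, 3 to 4 for AP-1 and immediate-early factors, 7 to 9 for chromatin modifying enzymes and 5 to 8 for circadian clock. Others were 5 to 7 for fatty acid synthesis and lipid storage, 2 to 4 for IL1 and NF-kB pathway, 4 to 6 for insulin and IGF signalling and 6 to 9 for integrins and laminins. Then came 5 to 7 for ion and water transport, 3 to 4 for KLF and SP factors, 7 to 9 for other nuclear receptors and 0 to 2 for p53 target genes. They were 6 to 10 for ZBTB factors.

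In 29 genes the vehicle libraries held no count and the 10 nM libraries at least 20 between them, and in 5 genes the reverse held. The genes named next were chosen after their values were seen. PHACTR3, a regulator of protein phosphatase 1 and actin, had 107 and 152 counts at 10 nM against 0 and 0 in vehicle, which makes it at least 47.3-fold higher. NLRP3, the inflammasome sensor, had 50 and 51 counts against 0 and 0, at least 18.4-fold higher. EPO, the gene of erythropoietin, had 129 and 134 counts at 10 nM against 1 and 1 in vehicle, a ratio of 144 (39.5 to 1190). SYT2, a synaptotagmin of vesicle release, had 104 and 112 counts against 1 and 0, a ratio of 236 (42.0 to 9380). In the other direction RUNX1T1, a corepressor, had 0 and 0 counts at 10 nM against 22 and 29 in vehicle, at least 7.77-fold lower. Floors and intervals cover counting error only, because PCR copies of a molecule were not told apart.

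The series includes a lower dose, 100 pM, to compare with 10 nM. Set directly against 100 pM at 6 h, the 10 nM libraries had 2795 genes called higher and 2332 lower, 20.1% and 16.8% of those tested. The total of 5127 became 8231 with the replicate block and 3281 without 100 pM replicate 3. CNTFR, a chain of the CNTF receptor, had 0.712 and 0.564 CPM in vehicle, 0.465 and 0.657 CPM at 100 pM and 19 and 28 CPM at 10 nM (10 nM over 100 pM, log2 5.39 ± 0.29, adjusted p = 7.13e-06). GPR124, an adhesion receptor, had 2.49 and 1.61 CPM in vehicle, 3.16 and 1.80 CPM at 100 pM and 62.4 and 76.6 CPM at 10 nM (log2 4.80 ± 0.29, adjusted p = 1.19e-05), and GABRQ, a GABA receptor subunit, 3.0 and 3.33 CPM in vehicle, 1.76 and 2.77 CPM at 100 pM and 41.1 and 57.6 CPM at 10 nM (log2 4.45 ± 0.30, adjusted p = 1.99e-05). In these 3 genes and in SERPINE2 (0.636 and 0.435 CPM in vehicle, 0.563 and 0.543 CPM at 100 pM and 11.8 and 14 CPM at 10 nM) the 100 pM libraries lay at or near the vehicle level. RET and LOX were 3.47 ± 0.23 and 3.72 ± 0.38 above 100 pM, and their 100 pM libraries stood above both vehicle libraries, by 0.96 ± 0.25 and 0.72 ± 0.39, without a call (adjusted p = 0.0901 and 0.585).

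Other leading rises were high at 100 pM as well. APLN, the apelin peptide, had 0.127 and 0.205 CPM in vehicle, 28.3 and 23.6 CPM at 100 pM and 36.4 and 42 CPM at 10 nM (10 nM over 100 pM, log2 0.60 ± 0.21, adjusted p = 0.0505). TRIM22, an antiviral ubiquitin ligase, had 0.585 and 0.205 CPM in vehicle, 12 and 18.8 CPM at 100 pM and 15.8 and 22.4 CPM at 10 nM (log2 0.31 ± 0.36, adjusted p = 0.531), and TMEM63C differed by 0.47 ± 0.28 (adjusted p = 0.235). The difference of APLN between doses was called with the replicate block (adjusted p = 0.00329), by DESeq2 (0.0153), with RLE scaling (0.0484) and with the 6 h libraries alone (0.0305). That of TMEM63C was called with the block (adjusted p = 0.0279). SGK1, a kinase that activates sodium channels, was lower at 10 nM than at 100 pM, with 0.102 and 0.256 CPM in vehicle, 38.1 and 62.3 CPM at 100 pM and 9.0 and 18.1 CPM at 10 nM (log2 -1.89 ± 0.39, adjusted p = 0.00555). LAMA3 (16.2 and 19.2 CPM in vehicle, 70.4 and 89.4 CPM at 100 pM and 37.6 and 40.8 CPM at 10 nM) and GRHL2 (194 and 201 CPM in vehicle, 620.3 and 555 CPM at 100 pM and 449.6 and 453 CPM at 10 nM) were likewise above vehicle at both doses and lower at 10 nM than at 100 pM (log2 -1.03 ± 0.13 and -0.38 ± 0.08, adjusted p = 0.000488 and 0.00537).

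Among falls, EHF had 276 and 391 CPM in vehicle, 549 and 724 CPM at 100 pM and 41.1 and 49.4 CPM at 10 nM (10 nM over 100 pM, log2 -3.81 ± 0.24, adjusted p = 1.51e-05), and ESR1 204 and 242 CPM in vehicle, 139 and 165 CPM at 100 pM and 49.2 and 71.1 CPM at 10 nM (log2 -1.34 ± 0.19, adjusted p = 0.000888). TCF7L1, a Wnt-regulated repressor, had 34.8 and 41.3 CPM in vehicle, 24.1 and 23.2 CPM at 100 pM and 101 and 111 CPM at 10 nM (log2 2.16 ± 0.11, adjusted p = 6.03e-06), and its own difference between 100 pM and vehicle was -0.68 ± 0.10. Against 100 pM, 64 of the 74 ribosome assembly genes were higher at 10 nM and 0 lower, and 14 of 24 replication-dependent histones were lower. Because the comparisons with vehicle and with 100 pM share the 10 nM libraries, their values stand side by side and are not independent.

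**Figure D4:**
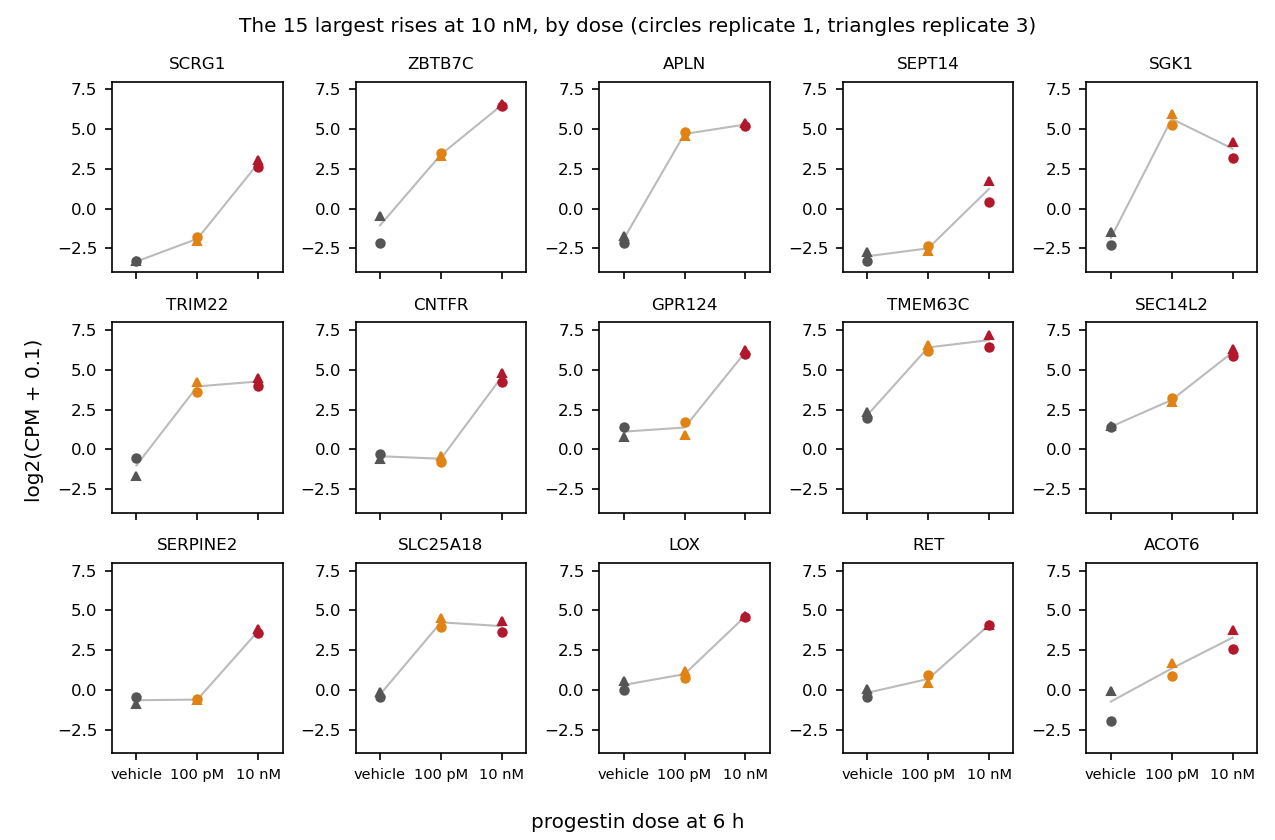
log2(CPM + 0.1) in vehicle, 100 pM and 10 nM libraries at 6 h for the 15 largest rises at 10 nM, with circles for replicate 1, triangles for replicate 3 and lines through the means. CNTFR, GPR124 and SERPINE2 lie near vehicle at 100 pM and high at 10 nM, and LOX and RET somewhat above vehicle at 100 pM. APLN, TRIM22, TMEM63C and SLC25A18 are already far above vehicle at 100 pM, with both APLN libraries lower there than at 10 nM.

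At 18 h the same dose was set against its own vehicle, and these 4 libraries share none with the 6 h comparison. edgeR called 2631 genes higher and 2103 lower at 18 h, 19% and 15.2% of those tested (7767 in all with the block). The 1795 genes called higher at both times were 68.2% of the 18 h rises and 57.3% of the 6 h rises, and the 1289 called lower at both were 61.3% of the 18 h falls and 47.8% of the 6 h falls. Against these, 65 genes rose at 6 h and were lower at 18 h, and 53 fell at 6 h and were higher at 18 h. Tested as a difference between times, the 10 nM effect was higher at 18 h than at 6 h in 631 genes and lower in 831, 4.55% and 5.99% of those tested. This total of 1462 was the least settled count here: it was 4863 with the block, 2316 by DESeq2 and 467 to 860 without 1 library.

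At 18 h 13 of the 74 ribosome assembly genes rose and 4 fell (median log2 0.05), against 63 and 1 at 6 h (median 0.71), and the effect was called lower at 18 h in 37 genes and higher in 0. POLR1E changed by 0.14 ± 0.10 at 18 h and 1.03 ± 0.10 at 6 h (difference -0.89 ± 0.14, adjusted p = 0.00842). Over the polymerase list the effect was lower at 18 h in 12 of 38 genes. Actin, focal adhesion and YAP genes gave 7 rises and 17 falls of 39 at 18 h against 15 and 6 at 6 h, and the effect was called lower at 18 h in 13 of them. RCAN1 changed by 0.72 ± 0.30 at 18 h and 2.45 ± 0.31 at 6 h (difference -1.73 ± 0.42, adjusted p = 0.0355). Histone genes, 13 of which fell at 6 h, had 2 rises and 1 fall at 18 h, and the difference between times was called in 3 of 24.

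Of 30 cholesterol genes 20 rose and 1 fell at 18 h (median log2 1.19), against 6 and 3 at 6 h (median 0.34). With the block the 6 h counts were 15 and 5, and the difference between times was called in 3 of the 30. Fatty acid genes gave 19 rises and 4 falls of 36 at 18 h against 10 and 9 at 6 h, with 4 genes called higher at 18 h. Apocrine and milk genes gave 8 rises of 16 at 18 h against 4 at 6 h, and the difference was called in 1. SLPI, a secreted protease inhibitor, had 38.9 and 38 CPM at 10 nM against 0.643 and 0.487 CPM in vehicle at 18 h and 3.46 and 3.33 CPM at 10 nM against 0.610 and 0.205 CPM in vehicle at 6 h (difference 3.04 ± 0.66, adjusted p = 0.0254).

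Some early falls did not last. RNF43 had 14.1 and 22.4 CPM at 10 nM against 23.4 and 23.3 CPM in vehicle at 18 h and 2.16 and 4.12 CPM at 10 nM against 24.1 and 25.5 CPM in vehicle at 6 h (difference 2.62 ± 0.40, adjusted p = 0.0069). FAM83A had 4.68 and 11.2 CPM at 10 nM against 3.66 and 3.03 CPM in vehicle at 18 h and 0.221 and 0.169 CPM at 10 nM against 3.26 and 2.56 CPM in vehicle at 6 h, so that a fall at 6 h stood beside a rise at 18 h (log2 1.24 ± 0.40 at 18 h and -3.87 ± 0.54 at 6 h, difference 5.12 ± 0.68, adjusted p = 0.0043). Others deepened: BCAS1, a gene amplified in breast cancer, had 10.2 and 13.8 CPM at 10 nM against 216 and 209 CPM in vehicle at 18 h and 84.8 and 80.6 CPM at 10 nM against 189 and 169.9 CPM in vehicle at 6 h (difference -3.02 ± 0.18, adjusted p = 0.000442), and FGF12, an intracellular fibroblast growth factor homologue, changed by -4.30 ± 0.14 at 18 h and -0.81 ± 0.11 at 6 h (difference -3.49 ± 0.18, adjusted p = 0.000201). Of the leading rises, APLN was smaller at 18 h (5.15 ± 0.30) than at 6 h (7.86 ± 0.32, difference -2.71 ± 0.51, adjusted p = 0.0151), and for RET, GREB1 and PGR the difference between times was not called (adjusted p = 0.443, 0.116 and 0.938, GREB1 0.0272 with the block). The difference of APLN lost its call without vehicle replicate 1 at 6 h or vehicle replicate 3 at 18 h, and that of SLPI without any 1 of 7 of the 8 libraries (adjusted p 0.0563 to 0.154). The difference of RCAN1 lost its call without any 1 of 5 of the 8 libraries (adjusted p 0.0753 to 0.125).

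**Figure D5:**
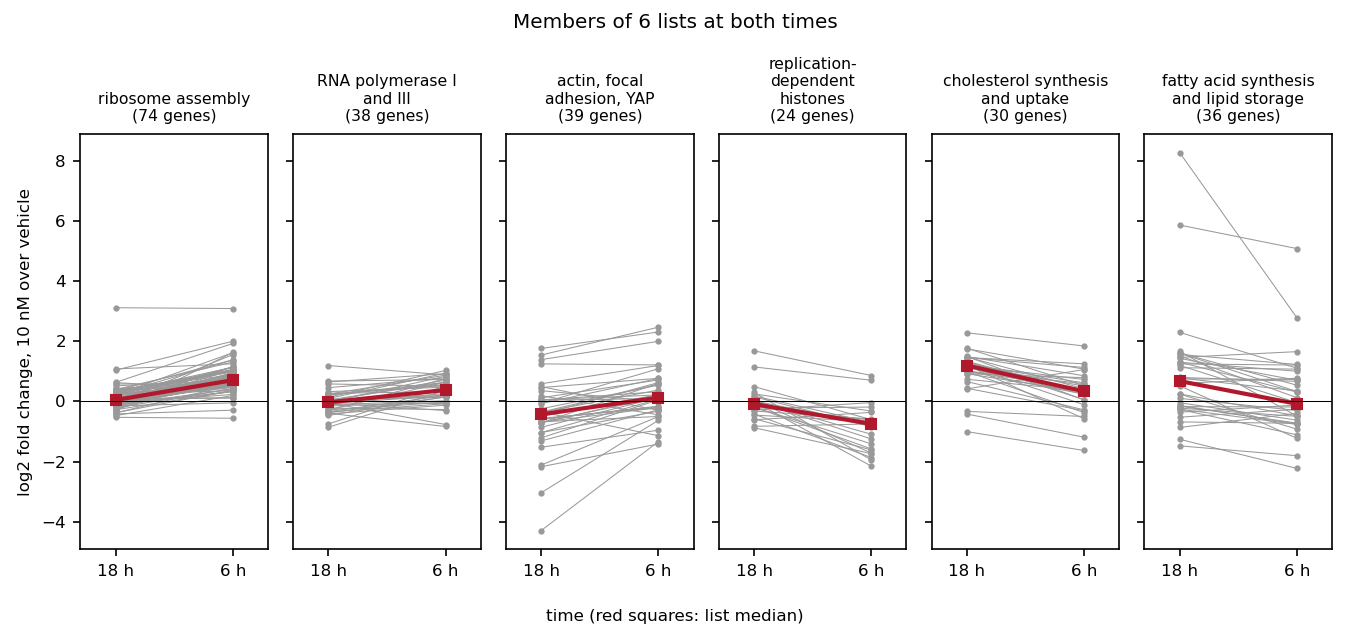
log2 fold change of 10 nM over vehicle at 18 h (left) and 6 h (right) for the tested members of 6 lists, 1 grey line a gene, with the list median as red squares. Medians are lower at 18 h for ribosome assembly, polymerases I and III and the actin list, and higher at 18 h for histones, cholesterol and fatty acid genes.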

How the data were processed

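Per the labels, total RNA of T47D cells was isolated with a column kit, and Nextera is named for the libraries. The submitters' processing notes name STAR, the build hg19 and DESeq2, without versions or roles. The deposited file gives whole-number read counts by gene symbol for 12 libraries, and all 12 columns were used. Its name labels them STAR gene counts, and the sources used here say no more of the counter. They do not name the annotation or the strand setting. Of 20114 symbols, 2709 had no count.

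From these counts, R 4.3.3 with edgeR 4.0.16 and limma 3.58.1 was used. filterByExpr with the 6 groups kept 13872 genes, and libraries were scaled by TMM. A robust quasi-likelihood fit of all 12 libraries, with a coefficient per group and 6 residual degrees of freedom, was tested for each contrast. The SE is the absolute log2 fold change divided by the square root of the test's F statistic. Adjustment was by Benjamini-Hochberg over the genes tested, with calls at 0.05. CPM were computed here from the deposited counts and the TMM-scaled library sizes. Alternatives were a replicate block, DESeq2 1.42.0, RLE scaling, scaling by total count alone, no filter on low counts, fits on fewer libraries, and each library left out. The scripts were tested on simulated data. Figures used Python 3.11.15 and matplotlib 3.10.9.

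The genes named start from those called with the widest log2 fold change, 15 up and 15 down, if the groups did not overlap and the average log2 CPM was 2 or more. To these were added the 6 rises and 6 falls that move the most CPM, up to 4 called members of each list, 13 fixed hormone response, cell cycle and keratin genes, and the 6 largest called differences each way between doses and between times. COL1A1, PHACTR3, NLRP3, EPO, SYT2 and RUNX1T1 were added after their values were seen. Not every gene chosen in this way is reported here. The members and the 63 lists were chosen with earlier results of these data known. Of the genes tested, 13639 matched RefSeq by symbol. The files' build is hg19, and coordinates are given only for RefSeq promoters in GRCh38.p14.

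Libraries with the same replicate number deviated from their group means together. Over 15 pairs of groups the correlation across genes was 0.604 to 0.819, and 0.668 between 10 nM and vehicle at 6 h. The numbers could therefore pair the libraries, a reading from the data, since the labels do not say what a number shares. The fit behind the log2 fold changes, SEs, adjusted p-values and calls has no term for replicate number, except where the block is named. The biological coefficient of variation was 0.163, and 0.0678 with the block. Replicates differed beyond sampling noise, with a chi-square per degree of freedom of 43 at 10 nM and 57.6 in vehicle. The labels do not state that replicates were separate cultures, and the spread behind each p-value may be technical.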

Additional observations from a re-analysis of the deposited data

Results flagged for a closer look

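Of the genes named above, the following were singled out because the 10 nM effect differed between times, by edgeR's test of the effect at 18 h minus the effect at 6 h (adjusted p under 0.05). Positive differences mean a higher effect at 18 h, and values are log2. No cause was tested. Among the largest falls and rises named above, the effect was higher at 18 h for FAM83A (5.12), SLITRK5 (2.43), VAV3 (2.26), RBBP8NL (2.21) and AMIGO2 (1.88). Among the largest falls and rises named above, the effect was lower at 18 h for APLN (-2.71) and SEC14L2 (-1.25). Among receptors, their partners and hormone-induced genes, the effect was higher at 18 h for NR3C2 (1.65), ESR1 (1.01), RARG (0.79) and NCOA2 (0.66). Among receptors, their partners and hormone-induced genes, the effect was lower at 18 h for VDR (-0.92), RAPGEFL1 (-0.88), CA12 (-0.77) and ESRRA (-0.67). Among transcription factors, the effect was higher at 18 h for TP63 (2.92), EHF (2.24), TFAP2C (1.28), JUNB (1.27), IER2 (0.94), TRPS1 (0.92), BHLHE40 (0.76), SP1 (0.65), TEF (0.54) and SP3 (0.49). Among transcription factors, the effect was lower at 18 h for PER2 (-1.29). Among genes of growth and biosynthesis, the effect was higher at 18 h for HIST1H2AC (1.26) and ASPM (0.98). Among genes of growth and biosynthesis, the effect was lower at 18 h for CTPS1 (-1.66), SRM (-1.08), CCND1 (-0.91), POLR1E (-0.89), IMPDH1 (-0.87), SEC24D (-0.81), EIF5B (-0.71), SLC1A4 (-0.70) and FARSB (-0.50). Among signalling genes, the effect was higher at 18 h for RNF43 (2.62), GRB7 (1.91), GABRQ (1.84), MAML2 (1.48), EGF (1.33), PIK3R3 (1.11) and NOTCH3 (0.80). Among signalling genes, the effect was lower at 18 h for FGF12 (-3.49), RCAN1 (-1.73), DUSP14 (-1.48), PIK3R2 (-0.97), TGFBR1 (-0.71) and ERBB2 (-0.47). Among the other genes, the effect was higher at 18 h for SLPI (3.04) and ESRP1 (1.08). Among the other genes, the effect was lower at 18 h for BCAS1 (-3.02), MT1X (-2.30), PXN (-1.15), VCL (-0.93), KRT8 (-0.90), MYH9 (-0.83), CTNND1 (-0.75) and COL1A1 (-0.61). The call was lost in each of the 8 fits that leave out 1 library for CCND1, SLC1A4, TEF and VCL. The call was lost in 5 to 7 of these fits for ASPM, BHLHE40, COL1A1, CTNND1, DUSP14, EGF, EIF5B, ERBB2, ESR1, FARSB, GABRQ, HIST1H2AC, JUNB, MT1X, MYH9, NCOA2, RAPGEFL1, RBBP8NL, RCAN1, SEC14L2, SEC24D, SLPI, SP3, TGFBR1 and TRPS1. It was lost in 1 to 4 of these fits for APLN, ESRRA, KRT8, RARG and TP63, and in none of them for the other 26 genes.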

How the results depend on the processing

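With replicate number as a block, there were 4282 falls at 10 nM against vehicle at 6 h, 8231 calls against 100 pM, 7767 calls at 18 h and 4863 differences between times. DESeq2 gave 2316 differences between times. Leaving out 1 library gave 1769 to 2085 falls against vehicle, 3281 to 4242 calls against 100 pM, and 467 to 860 differences between times. The 3132 rises against vehicle stayed within 1.5 times under each alternative run. Of the 5826 calls against vehicle, 5137 were kept under scaling by total count alone, 5097 with the 6 h libraries alone and 4799 with the 4 compared libraries alone. None of the called changes of named genes reversed its sign. With AGAACA in place of ACANNNTGT, the share of promoters with a match was 9.1% over all genes tested, 8.32% for rises, 8.94% for falls, 9.33% for rises over 4-fold and 13.6% for falls over 4-fold. The cause of these shifts was not tested. Where 1 library of a group remained, its spread was taken from the other groups. Depth limits the genes with few counts, whose ratios have wide counting intervals.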
